A study of Mus musculus with 3 samples.

Results

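Genes of glucose uptake and glycolysis were measured in single mouse embryonic stem (ES) cells before and after loss of cohesin. They are the glucose transporters Slc2a1 and Slc2a3 and the enzymes Hk2, Pfkp, Aldoa, Gapdh, Pgk1, Eno1, Pkm and Ldha. The genes were taken by symbol, and these 10 are 10 of the 52636 gene entries in the count tables. Aldoa stood on 2 entries, of which the one without any count was left out.

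Glycolysis splits glucose into pyruvate and yields ATP without oxygen, and lactate dehydrogenase then turns pyruvate into lactate. Pluripotent cells are known for a high rate of glycolysis, and the step from the naive to the primed state is known for a further turn from respiration towards glycolysis. Many of these genes are known targets of hypoxia-inducible factor and of MYC.

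The cells were JM8.N4 mouse ES cells of the C57BL/6N strain in which CRISPR/Cas9 had joined the cohesin subunit RAD21 to an auxin-inducible degron (AID), so that control and auxin-treated cells carried the same edited allele and came from 1 edited line. All cells grew without feeders in serum, leukemia inhibitory factor and the 2i inhibitors PD0325901 and CHIR99021. Auxin cells received 500 μM indole-3-acetic acid for 6 h, which degrades the RAD21 protein, and control cells received none. Cells were sorted into 96-well plates and measured by Smart-SCRB, a sensitive assay that tags the 3′ end of each transcript with a unique molecular identifier (UMI). There were 3 replicates, each with a control and an auxin group. In replicate 1 the annotation names the cells only as RAD21 positive and RAD21 negative, which were read here as control and auxin, and each replicate 1 change rests on this reading. The degron acts on the protein, so the level of Rad21 mRNA does not check the labels.

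The 16 plates held 1536 wells, of which 1335 had more than 2600 detected genes and were kept. For 2 of the 4 plates of replicate 3, the deposited annotation and the paper's source values gave opposite conditions, and their 168 cells were left out of the groups, which left 1167 cells. Summed counts per group ranged from 6064936 UMIs in 85 control cells of replicate 3 to 50448320 UMIs in 290 auxin cells of replicate 2, and the median cell held 72317 to 187088 UMIs. Plates reused well barcodes by design, with 96 barcodes shared by all 12 plates of replicates 2 and 3 and 192 barcodes shared by 2 plates each in replicate 1. Although all were grown in 2i, replicate 2 cells carried 58.6 CPM (UMI counts scaled to a total of 1000000) of Nanog in control, against 496 and 525 CPM in replicates 1 and 3, and 608 CPM of Dnmt3b against 31.1 and 49.1 CPM. The summed markers of endoderm, trophoblast, fibroblast and neural cells lay between 0.884 and 27.6 CPM in each group. The ES cell markers Pou5f1 and Sox2 were at 273 and 155 CPM in replicate 1 control, but at 8.40 and 0 CPM in replicate 2 and at 12.5 and 0 CPM in replicate 3. Of 3362 genes at 50 CPM or more in replicate 1 control, 99 (2.94%) lay more than 10-fold lower in both other replicates, Gapdh among them, and 51 of 3255 genes did the reverse. Any level set between replicate 1 and the others carries this difference in what was counted. Replicate 1 was also sequenced on another instrument than replicates 2 and 3, the part of which in these counts was not tested, and whether all replicates were aligned and counted in the same way is not given in the sources used here.

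Promoters of 9 of the 10 genes were found in RefSeq (GRCm38.p6), with 15 start sites among them. The hypoxia-inducible factor is known to bind a core written ACGTG or GCGTG. In the 250 bases before the start, ACGTG on either strand was found for 6 of the 9 genes, against 18.5% of 27025 genes with such windows, and GCGTG for 5 of the 9, against 30.9%. Several starts of 1 gene count here as 1 gene, and by window ACGTG was found in 7 of 15, against 16.6% of 32851 windows. Aldoa, Pkm and Ldha held it before some of their starts only. ACGTG overlaps the E-box CACGTG, which 1 of the 9 genes and 6.86% of all genes held. A set of 4 of these windows are printed 5′ to 3′ on the strand of the gene, with ACGTG or its reverse complement CACGT in capitals. Slc2a1 and Ldha are shown because their auxin and control plates lay apart in opposite directions in replicates 1 and 2, and Hk2 and Pgk1 because each holds 2 matches.
Slc2a1: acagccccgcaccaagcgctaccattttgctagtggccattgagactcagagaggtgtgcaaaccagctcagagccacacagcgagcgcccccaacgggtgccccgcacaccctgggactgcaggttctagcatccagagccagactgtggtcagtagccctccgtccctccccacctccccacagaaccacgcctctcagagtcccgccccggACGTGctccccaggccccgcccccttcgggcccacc
Hk2: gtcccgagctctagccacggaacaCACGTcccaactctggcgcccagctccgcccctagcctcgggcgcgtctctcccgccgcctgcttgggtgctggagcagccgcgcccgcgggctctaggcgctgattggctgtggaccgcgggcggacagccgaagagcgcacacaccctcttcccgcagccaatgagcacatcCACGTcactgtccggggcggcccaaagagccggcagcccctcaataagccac
Pgk1: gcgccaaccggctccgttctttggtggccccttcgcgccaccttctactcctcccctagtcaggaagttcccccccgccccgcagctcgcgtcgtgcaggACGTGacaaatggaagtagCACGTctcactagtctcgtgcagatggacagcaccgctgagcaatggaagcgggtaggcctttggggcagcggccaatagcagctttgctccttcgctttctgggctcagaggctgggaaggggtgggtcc
Ldha: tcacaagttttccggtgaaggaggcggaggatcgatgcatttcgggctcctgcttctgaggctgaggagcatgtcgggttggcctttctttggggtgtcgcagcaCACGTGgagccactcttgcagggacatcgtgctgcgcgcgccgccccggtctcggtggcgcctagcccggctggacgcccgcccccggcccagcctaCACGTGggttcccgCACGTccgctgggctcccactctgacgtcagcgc
The Slc2a1 window covers chr4:119108495-119108744 on the plus strand, and its match begins 36 bases before the RefSeq start. The GENCODE start given for the gene below lies inside this window. The Hk2 window covers chr6:82774455-82774704 on the minus strand, with matches beginning 226 and 52 bases before the start. The Pgk1 window covers chrX:106186850-106187099 on the plus strand, with matches beginning 150 and 131 bases before the start. The Ldha window covers chr7:46845554-46845803 on the plus strand and holds 5 matches, of which 4 lie in 2 copies of the palindrome CACGTG. It lies within the GENCODE bounds given for the gene below, and the window of the other RefSeq start of Ldha holds 0 matches. A match describes letters and is no measured binding site.

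Slc2a1 (chr4:119108711-119137983, plus strand, mm10), the basal glucose transporter of the plasma membrane, was lower after auxin in all 3 replicates when the unsettled plates of replicate 3 were left out, and higher in replicate 2 than in the others. Its level was 55.0, 187 and 60.0 CPM in control cells of replicates 1, 2 and 3, and 34.5, 119.8 and 38.4 CPM in auxin cells. Within a replicate, both auxin plates of replicate 1 (33.9 and 35.1 CPM) lay below both control plates (46.3 and 62.5 CPM). In replicate 2, the auxin plates at 90.8, 121.5, 129 and 138 CPM lay below the control plates at 150.1, 184, 203 and 211 CPM, so that the plates did not overlap. The log2 change was -0.67, -0.64 and -0.64 in replicates 1, 2 and 3, a mean of -0.65 ± 0.02 (SD, n = 3). The spread between these changes was small beside their mean, although control levels differed 3.40-fold between replicates 1 and 2. The value of replicate 3 rests on the placement of its plates. With the unsettled plates as annotated, it was 64.7 CPM in control and 42.6 CPM in auxin cells, but with the plates as in the source values it was 53.4 and 54.3 CPM, a log2 change of 0.02, so that Slc2a1 was then lower after auxin in 2 of 3 replicates.

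Slc2a3 (chr6:122727809-122801640, minus strand), a transporter of high glucose affinity best known from neurons, had the opposite order between replicates. It stood at 621, 284 and 812 CPM in control cells of replicates 1, 2 and 3 and at 499, 239.6 and 720.4 CPM in auxin cells. The mean log2 change with auxin was -0.24 ± 0.07 (SD, n = 3), with lower values in 3 of 3 replicates. With the unsettled plates as in the source values, replicate 3 stood at 779 CPM in control and 794 CPM in auxin cells, which left lower values in 2 of 3. The auxin plates of replicate 1 (497 and 500.4 CPM) lay below its control plates (525 and 731 CPM), whereas in replicate 2 the auxin plates (204 to 296 CPM) overlapped the control plates (239 to 307 CPM).

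**Figure D1:**
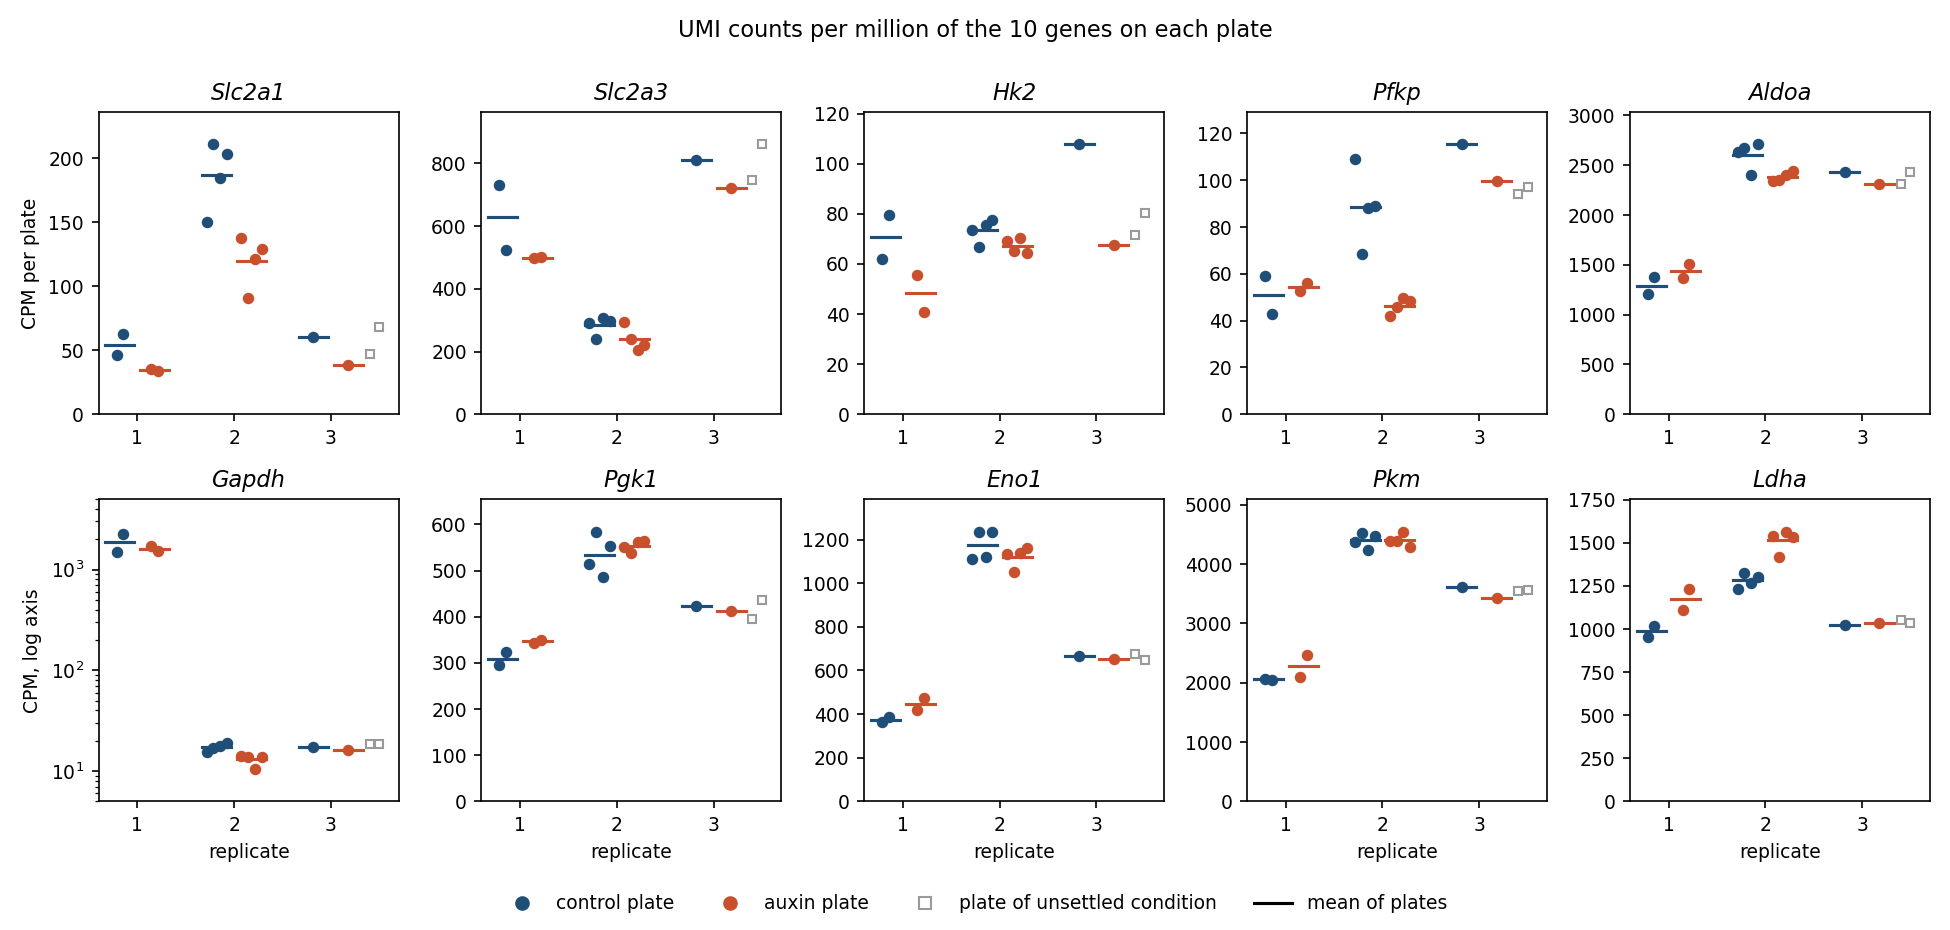
UMIs in CPM (vertical axis, linear from 0 except for Gapdh, which has a log axis) of each gene on each plate, by replicate (horizontal axis). Filled circles are control and auxin plates, lines are the mean of the plates, and open squares are the 2 replicate 3 plates of unsettled condition, the left one annotated as auxin and the right one as control. Slc2a1 is high and Slc2a3 low in replicate 2, and Gapdh is high in replicate 1.

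The balance of the transporters therefore differed. Slc2a3 molecules outnumbered Slc2a1 molecules 11.3-fold in control cells of replicate 1 and 13.5-fold in replicate 3, but 1.52-fold in replicate 2, and after auxin the ratio was 14.4, 18.7 and 2.00 in replicates 1, 3 and 2. Both are counts of molecules by their 3′ tags, so no division by transcript length was made. In single cells, Slc2a1 exceeded Slc2a3 in 126 of 371 replicate 2 control cells (34.0%, exact 95% interval 29.2 to 39.0%) and in 83 of 290 auxin cells (28.6%, 23.5 to 34.2%). It did so in 4 of 168 and 2 of 169 cells of replicate 1. In replicate 3 it did so in 0 of 85 control cells, which allows a share of up to 3.53% at 3 counts of the total (exact 95% interval up to 4.25%), and in 0 of 84 auxin cells, which allows up to 3.57% (exact interval up to 4.30%). These intervals and limits cover counting error only. With every cell thinned to 20000 UMIs, the shares in replicate 2 were 29.2% and 27.8%, and the highest share in replicates 1 and 3 was 1.19%.

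Hk2 (chr6:82725025-82774454, minus strand), a hexokinase that traps glucose in the cell as glucose 6-phosphate, was one of the less abundant members. Control cells held 71.2, 73.4 and 108 CPM in replicates 1, 2 and 3, and auxin cells held 48.7, 67.2 and 67.5 CPM. The value was lower after auxin in 3 of 3 replicates, by a mean log2 change of -0.45 ± 0.29 (SD, n = 3), and remained so under both placements of the unsettled plates. The plates of replicate 1 did not overlap, with auxin at 40.9 and 55.7 CPM and control at 61.8 and 79.4 CPM, but those of replicate 2 did, with auxin at 64.3 to 70.5 CPM and control at 66.9 to 77.7 CPM.

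Pfkp (chr13:6579768-6648777, minus strand), the platelet form of phosphofructokinase at the committed step of glycolysis, had the widest spread of changes. It stood at 50.5, 88.5 and 115 CPM in control cells of replicates 1, 2 and 3 and at 54.3, 46.5 and 99.8 CPM in auxin cells. In replicate 2 the auxin plates (42.1, 45.9, 48.3 and 49.5 CPM) lay below all control plates (68.3, 88.3, 88.8 and 109.0 CPM), while in replicate 1 the plates overlapped. The log2 change was 0.11, -0.93 and -0.21 in the 3 replicates, a mean of -0.34 ± 0.53 (SD, n = 3).

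Aldoa (chr7:126795234-126800751, minus strand), the aldolase that cleaves fructose 1,6-bisphosphate, was the second most abundant member in replicates 2 and 3. It reached 1297, 2603 and 2433 CPM in control cells of replicates 1, 2 and 3 and 1434, 2386 and 2309 CPM in auxin cells. The log2 change of -0.02 ± 0.14 (SD, n = 3) was within the spread of the replicates.

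Gapdh (chr6:125161715-125166467, minus strand), glyceraldehyde-3-phosphate dehydrogenase and a common reference gene, could not be compared between replicates. It was counted at 1905 CPM in control and 1623 CPM in auxin cells of replicate 1, but at 17.2 and 13.1 CPM in replicate 2 and at 17.5 and 16.2 CPM in replicate 3. Control levels differed 110-fold between replicates 1 and 2, whereas the other 7 enzymes among the members were higher in replicate 2 than in replicate 1 or at a similar level. Of the 451 stretches of 50 bases in the last 500 bases of its transcript, 408 (90.5%) also occurred in transcripts of 138 other annotated genes. The summed level of the 136 of these that were in the tables lay between 276 and 337 CPM in each of the 6 groups. Reads that mapped to several genes made up 15.9 to 21.4% of trimmed reads in replicate 1, 22.5 to 24.6% in replicate 2 and 22.4 to 24.2% in replicate 3, and their part in the Gapdh level was not tested.

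Pgk1 (chrX:106187100-106203699, plus strand), phosphoglycerate kinase and one of the ATP-making enzymes of the lower pathway, stood at 309.7, 535 and 423 CPM in control cells of replicates 1, 2 and 3. Auxin cells had 346, 554 and 413 CPM, a log2 change of 0.06 ± 0.10 (SD, n = 3). The 8 plates of replicate 2 (486 to 585 CPM) lay above all plates of replicates 1 (295 to 349.9 CPM) and 3 (395 to 437 CPM, the unsettled plates included).

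Eno1 (chr4:150236721-150248879, plus strand), the enolase that makes phosphoenolpyruvate, showed the widest gap between replicates among the enzymes other than Gapdh. Control cells had 375, 1175 and 667 CPM and auxin cells 447, 1122 and 654 CPM in replicates 1, 2 and 3. The 8 plates of replicate 2 covered 1049 to 1237 CPM, those of replicate 3 covered 647 to 675 CPM and those of replicate 1 covered 363 to 476 CPM, with no overlap. Of the 50-base stretches at the end of its transcript, 75.8% were shared with 6 other genes. The 5 of these in the tables summed to 0.610 CPM in replicate 1 control, 15.0 CPM in replicate 2 and 10.6 CPM in replicate 3. The part of reads that mapped to several genes in the Eno1 levels was not tested. The log2 change with auxin was 0.05 ± 0.17 (SD, n = 3).

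Pkm (chr9:59656368-59679375, plus strand), pyruvate kinase and the last step to pyruvate, was the most abundant member in every group. It had 2054, 4403 and 3619 CPM in control cells and 2273, 4397 and 3432 CPM in auxin cells of replicates 1, 2 and 3. The log2 change was 0.02 ± 0.11 (SD, n = 3). Its plates lay at 2040 to 2469 CPM in replicate 1, 3432 to 3619 CPM in replicate 3 and 4242 to 4549 CPM in replicate 2, again without overlap.

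Ldha (chr7:46841475-46855627, plus strand), the lactate dehydrogenase subunit that favours lactate, was the 1 member with a higher level after auxin in 3 of 3 replicates when the unsettled plates were left out, against 15.6% of all genes. It stood at 989.5, 1283 and 1021 CPM in control cells and at 1170, 1514 and 1037 CPM in auxin cells of replicates 1, 2 and 3. The auxin plates of replicate 1 (1112 and 1235 CPM) lay above its control plates (955 and 1020 CPM). The auxin plates of replicate 2 (1417, 1532, 1541 and 1566 CPM) also lay above its control plates (1231, 1270, 1304 and 1328 CPM). In replicate 3 the difference was 1.56%, and the 2 plates of unsettled condition, stood at 1032 and 1050.1 CPM. With these as in the source values, replicate 3 had 1036 CPM in control and 1034 CPM in auxin cells, so that the level was higher after auxin in 2 of 3 replicates. The log2 change was 0.17 ± 0.13 (SD, n = 3).

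**Figure D2:**
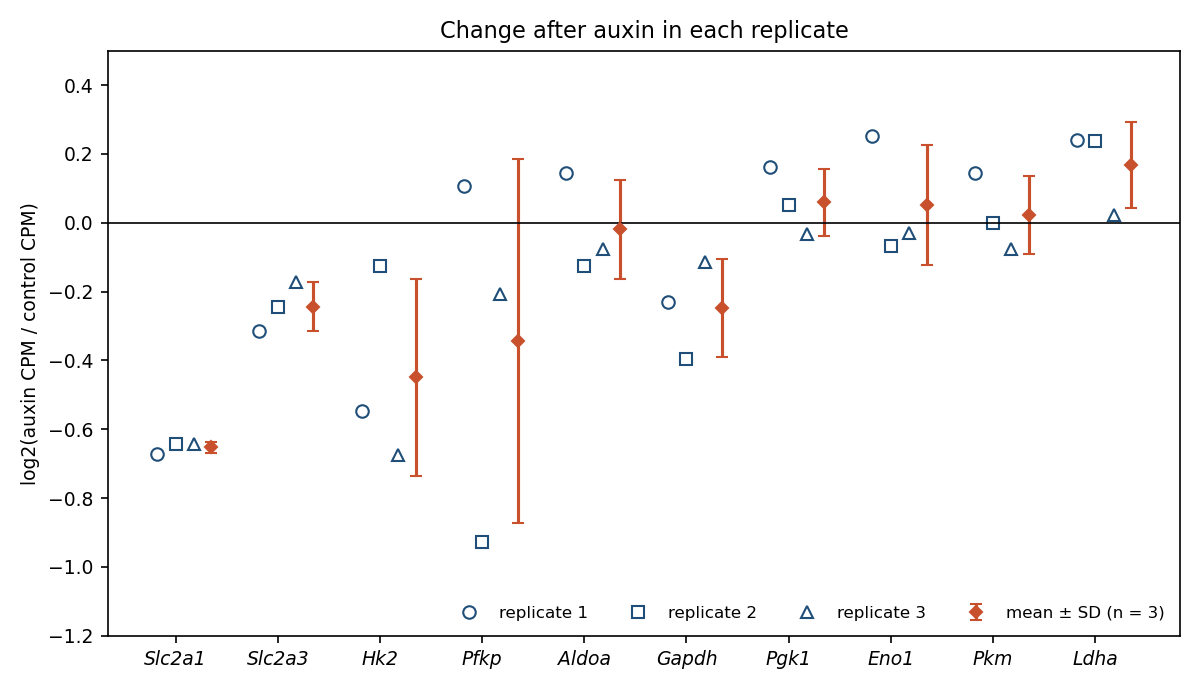
The log2 ratio of auxin over control CPM (vertical axis) for each gene, with 1 open symbol per replicate and the mean ± SD of the 3 replicates as a filled diamond. The unsettled plates of replicate 3 are left out, and without them Slc2a1 lies near -0.65 in all 3 replicates and Ldha lies above 0 in all 3.

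Whether cohesin loss changed the members was asked with summed counts per replicate and condition. All 10 members passed the filter on low counts. edgeR (quasi-likelihood, adjusted over 17514 genes by Benjamini-Hochberg) called none of the 10 and 0% of all genes (33 at an unadjusted p under 0.05, and 66 by DESeq2, which also called 0). The adjusted p was 1.00 for every member in that fit. The replicate numbers pair the samples, and with the replicate as a block edgeR called 0.00571% of genes as higher and 0.0114% as lower, with no member among these 3 genes. For Slc2a1, edgeR with the block gave a log2 change of -0.67 ± 0.11 (SE) and an adjusted p of 0.224, and DESeq2 with the block gave -0.69 ± 0.14 (SE) and an adjusted p of 0.000271. DESeq2 with the block called 0.0742% of genes as higher and 0.251% as lower, and Slc2a1 was the 1 member among them. Slc2a1 thus passed in 1 of these 4 fits. When the unsettled plates followed the source values, the blocked edgeR fit gave a log2 change of -0.46 for Slc2a1 with an adjusted p of 0.985, and when they followed the annotation it gave -0.66 with an adjusted p of 0.160.

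Directions are given next, with no test. With the unsettled plates left out, Slc2a1, Slc2a3, Hk2 and Gapdh were lower after auxin in all 3 replicates, 4 of 10 members, against 13.7% of all genes tested, and Ldha alone was higher in all 3, against 15.6%. The same members were named with the plates as annotated, against 14% and 16.1% of genes. With the plates as in the source values, Hk2 and Gapdh were lower in all 3, against 11.3% of genes, and Pgk1 was higher in all 3, against 14.1%, while Slc2a1, Slc2a3 and Ldha lost the pattern. For Gapdh, the replicate 3 direction rested on 106 UMIs in control and 108 in auxin cells, and with the source values its log2 change was -0.04. The Gapdh plates of replicate 1 overlapped, with control at 1477 and 2278 CPM and auxin at 1525 and 1709 CPM. Slc2a1 was also the 1 member whose auxin plates lay below the control plates without overlap in replicates 1 and 2 and whose level was lower in replicate 3, a pattern that 0.771% of genes had. Ldha was the 1 member with the mirrored pattern, which 1.15% of genes had. Both held with the plates as annotated, against 0.805% and 1.14% of genes. With the plates as in the source values, 0 members had either pattern, against 0.502% and 0.856% of genes. In replicate 1 alone, Hk2, Slc2a1 and Slc2a3 lay below without overlap, against 13.3% of genes, and Pgk1, Eno1, Pkm and Ldha above, against 17.8%. In replicate 2 alone, Pfkp, Gapdh and Slc2a1 lay below without overlap, against 5.78% of genes, and Ldha above, against 7.47%. With the unsettled plates left out, the enzymes from Aldoa to Pkm other than Gapdh had mean log2 changes between -0.02 and 0.06.

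Replicate 2 was next set against replicates 1 and 3, since its cells carried less Nanog and more Dnmt3b. In control cells Slc2a1 was 3.40-fold the level of replicate 1 and 3.12-fold that of replicate 3, and Slc2a3 was 2.19-fold and 2.86-fold lower. Slc2a1 was the 1 member at least 2-fold higher than in both others, against 10.5% of genes, and Slc2a3 the 1 member at least 2-fold lower, against 6.29%. The auxin cells, on plates of their own in the same replicates, gave 3.47-fold and 3.12-fold for Slc2a1 and 2.08-fold and 3.01-fold lower for Slc2a3. All 8 plates of replicate 2 lay above all plates of the others for Slc2a1, Pgk1, Eno1 and Pkm, against 6.8% of genes, and below them for Slc2a3, against 4.49%. Against replicate 3 alone, which shares its instrument, Ldha joined those above, against 9.38% of genes, and Slc2a3 again was the 1 below, against 10.9%. Slc2a1 was at least 2-fold above replicate 3 in control and in auxin, as were 8.54% of genes, and Slc2a3 at least 2-fold below in both, as were 8% of genes. Replicate 1 plates lay below all others for Aldoa, Pgk1, Eno1 and Pkm, against 24.8% of genes, and above all others for Gapdh, against 7.81%. Aldoa was 2.01-fold the level of replicate 1 but 1.07-fold that of replicate 3, and its plates overlapped those of replicate 3.

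**Figure D3:**
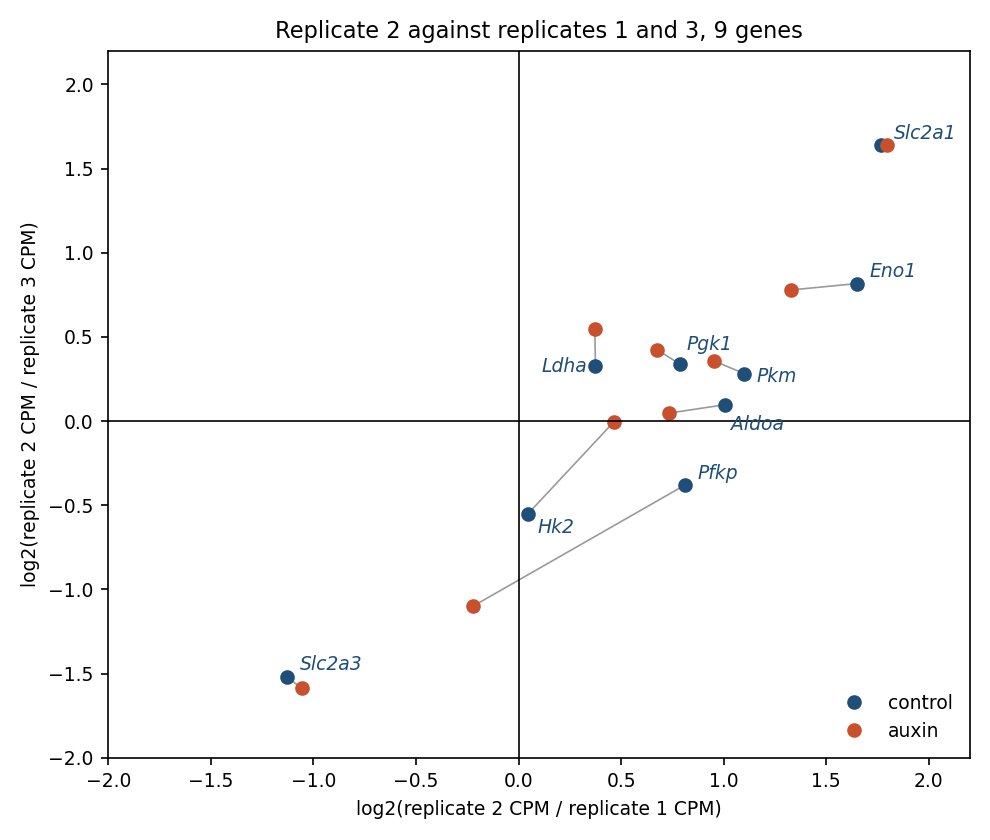
The log2 ratio of replicate 2 over replicate 1 CPM (horizontal axis) and over replicate 3 CPM (vertical axis) for 9 genes in control and auxin cells, with a line joining the points of 1 gene. Slc2a1 lies at the upper right and Slc2a3 at the lower left in both conditions, and Gapdh is left out.

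The test across genes had little power here, since it set 1 sum against 2 with 1 residual degree of freedom, and its lack of calls does not show that levels were alike. edgeR on the 3 control sums, with the spread taken from replicates 1 and 3, called 0% of 20257 genes (607 at an unadjusted p under 0.05) and gave an adjusted p of 1.00 for every member. Its log2 difference was 1.54 ± 0.45 (SE) for Slc2a1, -1.48 ± 0.53 (SE) for Slc2a3 and 1.07 ± 0.51 (SE) for Eno1. DESeq2 called 0.395% of genes as higher and 1.99% as lower, with no member among them, and its smallest adjusted p for a member was 0.0597, for Slc2a3. Replicate 2 is 1 repeat of the experiment, and the state of its cells, sequencing run and depth cannot be told apart. Depth was also highest in replicate 2, at a median of 143842 UMIs per control cell against 104443 and 72317 in replicates 1 and 3. Replicate 1, deeper than replicate 3, stood lower than it for Slc2a1, Pgk1, Eno1 and Pkm in control cells, and the part of depth was not tested. The formative and primed markers summed to 897 CPM in replicate 2 control against 46.6 and 59.5 CPM, and their part in the members' levels was not tested.

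Other genes of glucose metabolism were taken from lists by role. None of their tested genes was called for auxin by edgeR, with or without the block, and for replicate 2 values are given as a description. Of 18 other glycolysis enzymes, 16 were tested for replicate 2. Tpi1, triosephosphate isomerase, stood at 790 CPM in replicate 1, 1841 in replicate 2 and 1348 in replicate 3 control. Pgam1, phosphoglycerate mutase, stood at 1213, 1386 and 1336 CPM and Gpi1, glucose-6-phosphate isomerase, at 476, 626 and 678 CPM. Ldhb, the lactate dehydrogenase subunit that favours pyruvate, stood at 187, 599.7 and 118 CPM. The plates of replicate 2 lay above the others for 3 of the 16 and below for 1, against 6.8% and 4.49% of all genes.

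Among 19 transporters and regulators of glycolysis, 18 were tested for replicate 2, with the plates of replicate 2 above all others for 4 and below for 1, against 6.8% and 4.49% of all genes. Bsg, the chaperone of the lactate transporters, stood at 349, 483 and 729 CPM in control cells of replicates 1, 2 and 3. Tigar, a phosphatase that lowers fructose 2,6-bisphosphate, stood at 127, 75.2 and 190 CPM. Mycn, a MYC family factor, stood at 45.2, 111 and 29.7 CPM. Slc16a3, the lactate exporter MCT4, stood at 4.77, 128 and 14.8 CPM. Mycn and Slc16a3 were thus highest in replicate 2, Tigar lowest there, and Bsg between the others. Of the hypoxia targets outside glycolysis, 6 of 20 lay above and 2 of 20 below, against 6.8% and 4.49% of all genes. Fam162a, a mitochondrial protein, stood at 134, 381 and 132 CPM while the adenylate kinase Ak4 stood at 172, 18.6 and 254 CPM and the histone demethylase Kdm3a at 182, 75.5 and 148 CPM.

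Routes that take pyruvate and glucose elsewhere are given for comparison. Of 14 genes of pyruvate import and pyruvate dehydrogenase, 0 had replicate 2 plates above all others and 4 had them below, against 6.8% and 4.49% of all genes. Pdhb, the beta subunit of the first enzyme of the complex, stood at 178, 265 and 249.6 CPM in control cells of replicates 1, 2 and 3. Its alpha subunit Pdha1 stood at 204, 113 and 262 CPM, and Mpc1, part of the mitochondrial pyruvate carrier, at 129, 32.5 and 95.5 CPM. Pdha1 and Mpc1 were thus lowest in replicate 2 and Pdhb highest there. The 8 genes of the pentose phosphate pathway summed to 1303, 1259 and 1467 CPM, with the plates of replicate 2 above all others for 0 and below for 2, against 6.8% and 4.49% of all genes. Its most abundant genes were transaldolase Taldo1 (542, 455 and 616 CPM), Pgls (329, 353 and 347 CPM) and Pgd (168.3, 167.8 and 211 CPM). The 17 genes of the citric acid cycle summed to 3112, 3126 and 3704 CPM, with replicate 2 above for 1 and below for 3, against the same 6.8% and 4.49%. Its most abundant genes were malate dehydrogenase Mdh2 (594, 629 and 807 CPM), Suclg1 (378, 303 and 339 CPM) and the succinate dehydrogenase subunit Sdha (218, 281 and 287 CPM). The 9 members without Gapdh took 0.582%, 1.06% and 0.926% of all UMIs. Among the sums of these metabolic lists, replicate 2 control stood highest for the members without Gapdh, the other glycolysis enzymes and the hypoxia targets, and replicate 3 for the remaining lists.

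Within a group, the members varied from cell to cell to unequal degrees. After removal of counting error, the coefficient of variation of CPM across cells was 98.2 to 259% for Pfkp and 79.3 to 138% for Slc2a1 over the 6 groups. It was 44.8 to 95.7% for Hk2 and 47.6 to 105% for Slc2a3. Among the abundant enzymes it was 29.2 to 42.8% for Pkm, 33.6 to 48.6% for Aldoa, 35.2 to 47.6% for Eno1, 47.6 to 61.3% for Pgk1 and 47.8 to 60.3% for Ldha. Gapdh covered 24.7 to 79.4%, with the low values in replicate 1, where it was abundant. The widest spread of each group was thus that of Pfkp or Slc2a1, and the narrowest that of Pkm or, in replicate 1, of Gapdh.

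Across cells, Aldoa, Pgk1, Eno1, Pkm and Ldha varied together. Spearman's correlation of CPM per cell between Pkm and Ldha was 0.58 as the mean of the 6 groups of 84 to 371 cells, with a range of 0.49 to 0.68. Aldoa and Pkm gave 0.55, Eno1 and Ldha 0.54, and Eno1 and Pkm 0.51. The 10 pairs among Aldoa, Pgk1, Eno1, Pkm and Ldha lay between 0.40 and 0.58, and the other 35 pairs lay between -0.02 and 0.26, a grouping made after the values were seen. Hk2, Pfkp and Slc2a1 held 3.06 to 24.7 UMIs per cell on average, against 30.2 to 765 for the 5 enzymes. The part of this sparser counting in the split was not tested. Slc2a3, also outside the block, held 37.5 to 66.6 UMIs per cell. Hk2 and Slc2a3 had mean correlations with the other members of 0.08 and 0.06, against 0.30 for Ldha. Gapdh, which acts between Aldoa and Pgk1, held 1.25 to 2.28 UMIs per cell in replicates 2 and 3, so that its mean over the 6 groups says little. In replicate 1, with 204 UMIs per cell in control and 185 in auxin cells, it correlated with Ldha at 0.15 and 0.36, with Eno1 at 0.31 and 0.19, with Pgk1 at 0.24 and 0.26, with Aldoa at 0.11 and 0.13 and with Pkm at 0.11 and 0.05. Some of these values overlapped those among the 5 enzymes in the same cells, such as Aldoa and Eno1 at 0.22 and 0.28. Slc2a1 and Slc2a3, which had opposite orders between replicates, correlated weakly but positively across the cells of each group, at 0.07 to 0.23. Cells of a group share a replicate, plates and a sequencing run, so these values are a description.

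**Figure D4:**
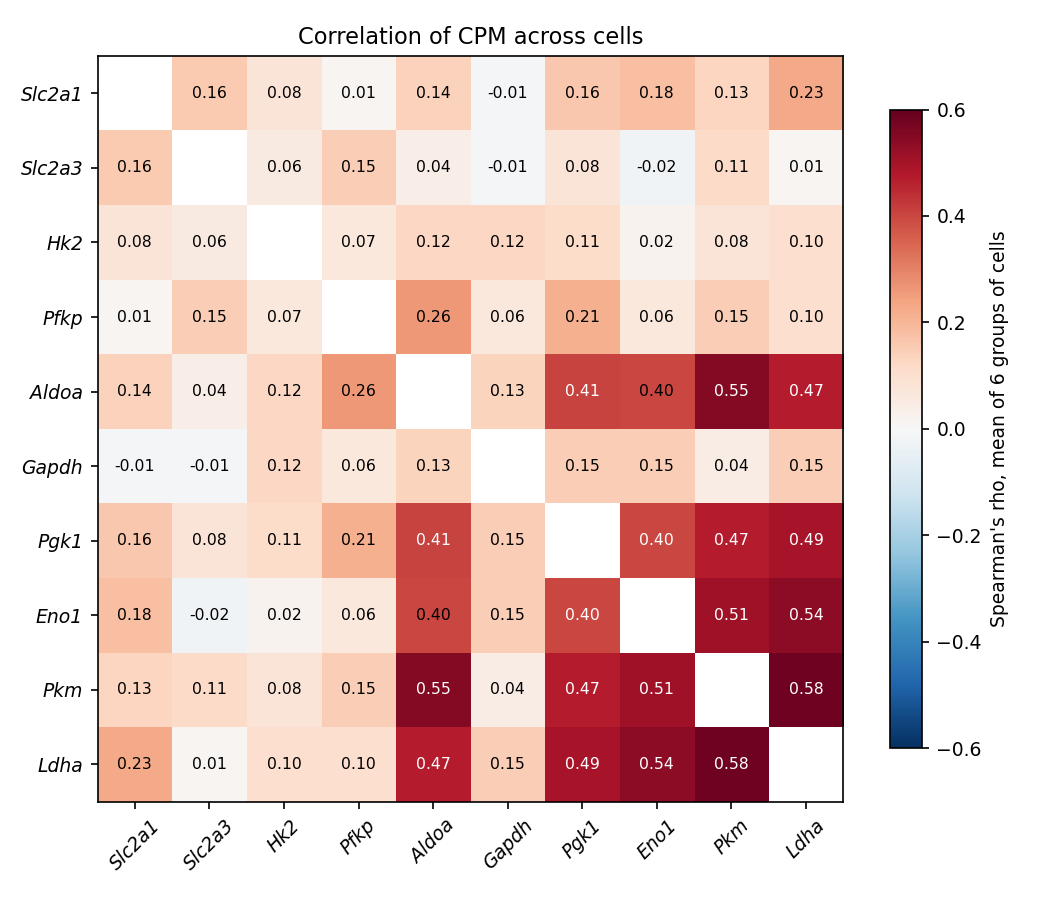
Spearman's correlation of CPM across cells for each pair of genes, as the mean over 6 groups of cells (3 replicates, control and auxin), with the colour scale from -0.6 to 0.6. The block of Aldoa, Pgk1, Eno1, Pkm and Ldha lies at 0.40 to 0.58, while Hk2 and the transporters lie between -0.02 and 0.23 with the others. Gapdh is low in this mean, in which 4 of the 6 groups held 1.25 to 2.28 of its UMIs per cell. Hk2, Pfkp and Slc2a1 held 3.06 to 24.7 UMIs per cell.

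The mean over all 45 pairs was 0.169, 0.220 and 0.175 in control cells of replicates 1, 2 and 3 and 0.153, 0.243 and 0.160 in auxin cells, against 0.00707 to 0.0518 for all pairs of the 9517 genes with at least 1 UMI per cell. These genes were not matched to the members in abundance. Of all their pairs, 0.208 to 7.04% lay above the mean of the members without Gapdh in the same group. Among Aldoa, Pgk1, Eno1, Pkm and Ldha the mean was 0.418, 0.556 and 0.487 in control cells and 0.380, 0.613 and 0.437 in auxin cells. Both means were lower after auxin in replicates 1 and 3 and higher in replicate 2, but these directions did not hold in every setting. For all 45 pairs, the rise in replicate 2 turned into a fall in thinned cells (0.164 to 0.153), in cells with more than 4000 detected genes (0.207 to 0.187) and in partial correlations that hold the UMI count of the cell fixed (0.203 to 0.178). The partial correlation in replicate 1 rose, from 0.159 to 0.181 for all pairs and from 0.397 to 0.435 for these 5 enzymes. On raw counts, replicate 3 rose from 0.357 to 0.453 for all pairs and from 0.705 to 0.783 for the 5. Among the 5 the directions of all 3 replicates held in thinned cells and in cells with more than 4000 detected genes. Depth moved with some of these values, and thinning every cell to 20000 UMIs lowered the mean over the 6 groups from 0.187 to 0.134. The CPM of Eno1 correlated with the UMI count of the cell at 0.50 in replicate 2 control and at 0.24 and 0.09 in replicates 1 and 3.

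The 10 genes outside the list whose CPM followed the members most closely, by the mean correlation with all 10 members over the 6 groups, were led by other glycolytic enzymes. Tpi1 had a mean correlation of 0.30 and Pgam1 of 0.29, followed by the lactate exporter Slc16a3 (0.22), the cytokine Mif (0.21), Gpi1 (0.20), the mitochondrial protein Bnip3 (0.20), the liver phosphofructokinase Pfkl (0.19), the RNA-binding protein Hnrnpa1 (0.19), the uridine phosphorylase Upp1 (0.18) and Higd1a (0.18). All 10 were positive in each of the 6 groups, with the lowest value at 0.066 for Hnrnpa1 in replicate 3 control. ACGTG was found before the start of 4 of these 10 genes, against 18.5% of all genes.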

How the data were processed

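The values deposited by the authors are UMI counts, whole numbers for each gene in each well, from 3′ reads aligned to mm10 and not normalized. The aligner and annotation were not given in the sources used here. A per-well table deposited by the authors gives the number of detected genes and the percent of counts from ERCC spike-ins, and a per-plate table gives the saturation as a fraction, which was 0.283 to 0.314 in replicate 1, 0.539 to 0.579 in replicate 2 and 0.470 to 0.531 in replicate 3.

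Following the study's filter, a well needed more than 2600 detected genes, and no doublet caller was run on the sorted cells. 1 well on a replicate 2 auxin plate carried the number of the neighbouring auxin plate and was kept. Counts of mouse genes, without 92 ERCC and 11 other sequences, were summed per replicate and condition, and CPM was taken per sum, plate or cell. edgeR 4.0.16 (quasi-likelihood test, TMM, filterByExpr, Benjamini-Hochberg, threshold 0.05) in R 4.3.3 was the main test, and DESeq2 an alternative. The replicate numbers pair the samples, as each replicate is 1 repeat of the experiment, and the deviations of its control and auxin sums from the group means correlated at 0.892, 0.851 and 0.718. P-values measure the spread between these 3 repeats. The fits and correlations were also run on simulated data, whose outcome is not given here. For the test of replicate 2, the simulated counts of replicates 1 and 3 shared the same mean levels, which the real counts did not.

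The 10 genes were given by name, and these, the gene lists and the split of replicate 2 were chosen with earlier results of these data known. Of each list of metabolic genes, the 3 or 4 with the highest mean CPM over the 6 sums were named, and the 10 genes most like the members by their mean Spearman correlation. Positions came from GENCODE M21 (mm10), and reads of overlapping genes (Slc2a3 with Gm4482, Pkm with Gm49759, Slc2a1 with Mir1957a, on the same strand) may be split between them. Alternatives were another scaling, no filter, more than 4000 detected genes, DESeq2, the replicate block, each replicate left out and both placements of the unsettled plates.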

Additional observations from a re-analysis of the deposited data

Results flagged for a closer look

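Of the 20 groups of 4 plates in replicate 2 (10 genes, control and auxin), 1 held a plate far from the others by Dixon's test, and about 1 in 20 such groups is marked by chance. Gapdh stood at 10.4 CPM on 1 auxin plate, against 13.9 to 14.0 CPM on the other auxin plates.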

How the results depend on the processing

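No member passed the threshold for auxin in any alternative except DESeq2 with the replicate block, which called 1 (Slc2a1, log2 change -0.69). Without a filter on low counts, the test of replicate 2 called 1 member (Gapdh, log2 difference -6.06). Over all genes, the auxin test called 3 with the replicate block in edgeR, 57 with it in DESeq2, 3 with it and the unsettled plates as annotated, 0 with it and these plates as in the source values, and 14, 32 and 2 with it and replicate 1, 2 or 3 left out, against 0 without the block. The test of replicate 2 called 483 genes with DESeq2 and 477 without the filter, against 0. The 2 fits that joined the block with a placement of the unsettled plates were chosen after seeing the data. The mean correlation of the members, 0.187, was 0.134 in cells thinned to 20000 UMIs, with 27 shallower cells left out, and 0.435 on raw counts. It was 0.212 without Gapdh. Scaling by total UMIs moved the median log2 difference of all genes in replicate 2 from 0.01 to 0.14. For Slc2a1, leaving out replicates 1, 2 and 3 from the blocked edgeR fit gave adjusted p of 0.247, 0.213 and 0.794. Replicate 2 against 1 other replicate alone is a ratio with no test.

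Some values changed sign, and the cause was not tested. The log2 change of Eno1 after auxin was -0.00061 and became 0.00065 with more than 4000 detected genes, 0.015 without the filter, 0.0095 with the plates as annotated, 0.0041 with total UMIs, 0.039 with the replicate block, 0.021 with the block in DESeq2, 0.050 with the block and the annotated plates and 0.021 with the block and the source values. For Pkm it was -0.00076 and became 0.0023, 0.017, 0.0073 and 0.0044 under the first 4 of these settings, 0.0014 with the plates as in the source values, 0.0094 with the block, 0.018 with the block and annotated plates and 0.012 with the block and source values. With 1 replicate left out, Eno1 ranged from -0.060 to 0.096 without the block and reached 0.057 and 0.107 with it, Pkm from -0.036 to 0.022 and up to 0.037, and Aldoa from -0.10 to 0.020 and up to 0.029. In replicate 2 against the others, Hk2 changed from -0.41 to 0.022 in auxin sums and ranged from -0.55 to 0.044 with replicate 1 or 3 left out. Pfkp changed from 0.01 to -0.89 in auxin sums, -0.011 with DESeq2 and -0.012 with its size factors, and ranged from -0.38 to 0.81 with replicate 1 or 3 left out.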
